A study of Homo sapiens with 48 samples.

Results

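The genes described here are 46 DNA replication genes, chosen as the rows of a raw RNA-seq count table whose gene symbol is on a list of replication factors, out of 37706 genes in that table. All 46 were found, and all 46 passed the filter on low counts that left 17749 genes for testing. Gene expression was measured in 4 cell lines of germinal centre B cell-like diffuse large B cell lymphoma (GCB-DLBCL), named SUDHL6, Oci-Ly7, Oci-Ly8 and Oci-Ly18, each a single established line. Each line was grown for 6 days in DMSO (the vehicle), in EPZ-5676 (DOT1Li, an inhibitor of the histone H3 lysine methyltransferase DOT1L), in GSK343 (EZH2i, an inhibitor of EZH2, the enzyme of PRC2 that methylates histone H3) or in both (Combo), with reseeding into new medium and inhibitor on day 3. Every line and treatment has 3 libraries, 48 in all. The study asked how the inhibitors, alone and together, affect the identity of these cells. With doses, the genotypes of the lines and the independence of the replicate cultures not given in the sources used here, the p-values measure the spread among these libraries only.

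Before a cell divides it copies its genome once. Origins are licensed in G1 when the origin recognition complex (ORC) with CDC6 and CDT1 loads the MCM2 to MCM7 helicase, and they fire in S phase when CDC45, the GINS complex and MCM10 turn the loaded helicase into a moving one. DNA polymerase alpha with primase lays down primers, the RFC clamp loader places the PCNA ring, and polymerases epsilon and delta extend the strands while RPA covers single-stranded DNA. FEN1, EXO1 and LIG1 finish the lagging strand, ribonucleotide reductase with TYMS and TK1 supplies nucleotides, and CAF-1 (CHAF1A, CHAF1B), UHRF1 and DNMT1 restore chromatin and DNA methylation behind the fork. E2F factors are known to drive many of these genes at the G1 to S transition, and germinal centre B cells are among the fastest dividing cells of the body.

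Promoter windows are shown first because E2F factors are known regulators of many of these genes. RefSeq promoters (build GRCh38.p14, 250 bases before to 50 bases after the gene start) were matched for 31 of the 46 genes. An E2F site, searched on both strands as TTTCGCGC, TTTGGCGC, TTTCCCGC or TTTGCCGC, was in 17 of these 31 promoters (54.8%). It was in 3.31% of all 35116 promoters of that length, and in 4.64% of the 17272 that belong to tested genes. Windows of 60 bases around the match follow for 6 genes, 1 from each of 6 roles, read 5′ to 3′ in the direction of the gene with the E2F match in capitals. They lie at chr16:88803712-88803771 on the plus strand (CDT1), chr2:135876512-135876571 on the minus strand (MCM6), chr12:132687343-132687402 on the minus strand (POLE), chr19:48170441-48170500 on the minus strand (LIG1), chr18:657572-657631 on the plus strand (TYMS) and chr20:33686388-33686447 on the minus strand (E2F1).
CDT1: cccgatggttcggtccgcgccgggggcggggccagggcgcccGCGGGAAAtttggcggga
MCM6: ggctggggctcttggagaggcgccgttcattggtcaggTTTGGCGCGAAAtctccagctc
POLE: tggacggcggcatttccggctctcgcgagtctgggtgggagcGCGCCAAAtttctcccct
LIG1: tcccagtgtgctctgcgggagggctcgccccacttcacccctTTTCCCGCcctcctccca
TYMS: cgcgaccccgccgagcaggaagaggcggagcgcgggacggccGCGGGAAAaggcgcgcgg
E2F1: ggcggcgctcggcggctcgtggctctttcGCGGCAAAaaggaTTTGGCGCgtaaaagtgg
In MCM6 the capitals hold 2 overlapping matches on opposite strands, and the E2F1 promoter holds 2 separate ones. A CCAAT box (CCAAT) was in 18 of the 31 promoters (58.1%, against 34.6% of all promoters and 34.5% of those of tested genes). The MYC E box CACGTG was in 4 (12.9%, against 7.26% and 9.17%), and the CHR element TTTGAA in 1 (3.23%, against 15.2% and 10.8%). These are matches of letters, not shown binding sites.

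The libraries held between 5174269 and 18845074 counts, with a median of 14499938. The shallowest, Oci-Ly8 DOT1Li replicate 3, and Oci-Ly8 DMSO replicate 3 stood apart from the other 46 in how counts rise with transcript length (slopes of 0.758 and 0.723, the next lowest being 0.822), and the Oci-Ly8 calls and medians are given once more without both. The 9 B cell markers MS4A1, CD79A, CD79B, PAX5, EBF1, CD22, BCL6, MME and MYBL1 each had counts in 48 libraries. Levels are CPM (counts scaled to a common library total) after TMM scaling, a change is a log2 fold change, and a gene is called lower or higher when its Benjamini-Hochberg adjusted p over all 17749 genes is under 0.05 in edgeR's quasi-likelihood test. The 3 treatments of a line share that line's DMSO libraries, so their values are set side by side without a test of likeness between them.

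In DMSO the replication machinery was present in every library, but its parts differed in level and between lines. All 46 genes differed between the 4 lines in the F test of DMSO level, as did 93.1% of all genes tested, so the count says little about these genes. Compared per kilobase of exon, the clamp PCNA was the most abundant member in Oci-Ly7, at 384 ± 17 CPM per kb (mean ± SD, n = 3), in Oci-Ly8 at 316 ± 58.5 and in SUDHL6 at 348 ± 8.88. In Oci-Ly18 the thymidylate synthase gene TYMS stood above PCNA, at 364 ± 10.9 against 269.5 ± 9.22 CPM per kb. At the other end POLA2, the accessory subunit of polymerase alpha, ranged from 2.4 ± 0.135 in Oci-Ly7 to 5.19 ± 1.76 in Oci-Ly8, where the third replicate read 40.7 CPM against 20.8 and 27.7 CPM.

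The member with the strongest difference in DMSO level was UHRF1 (ENSG00000276043, chr19:4903080-4962154), which binds hemimethylated DNA and recruits DNMT1. It stood at 181 ± 13.6 CPM per kb in SUDHL6, and at 49.6 ± 2.8, 49.2 ± 8.45 and 52.1 ± 3.14 in Oci-Ly7, Oci-Ly8 and Oci-Ly18, whose libraries overlap (adjusted p of the F test over 4 lines = 1.50e-28). RFC4, a subunit of the clamp loader, was highest in Oci-Ly7, at 92.3 ± 3.49 CPM per kb against 34.7 ± 4.11 to 40.3 ± 2.26 in the other 3 lines (adjusted p = 1.18e-27). TYMS followed, with 253 ± 18.1 CPM per kb in SUDHL6 between Oci-Ly18 and the near-equal levels of Oci-Ly7 (129.7 ± 6.09) and Oci-Ly8 (124 ± 5.34; adjusted p = 3.38e-27). TYMS overlaps a gene on the opposite strand and PRIM2 and PCNA have related copies, and the strand setting of the counting is not given in the sources used here, so levels of these genes are less certain.

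**Figure D1:**
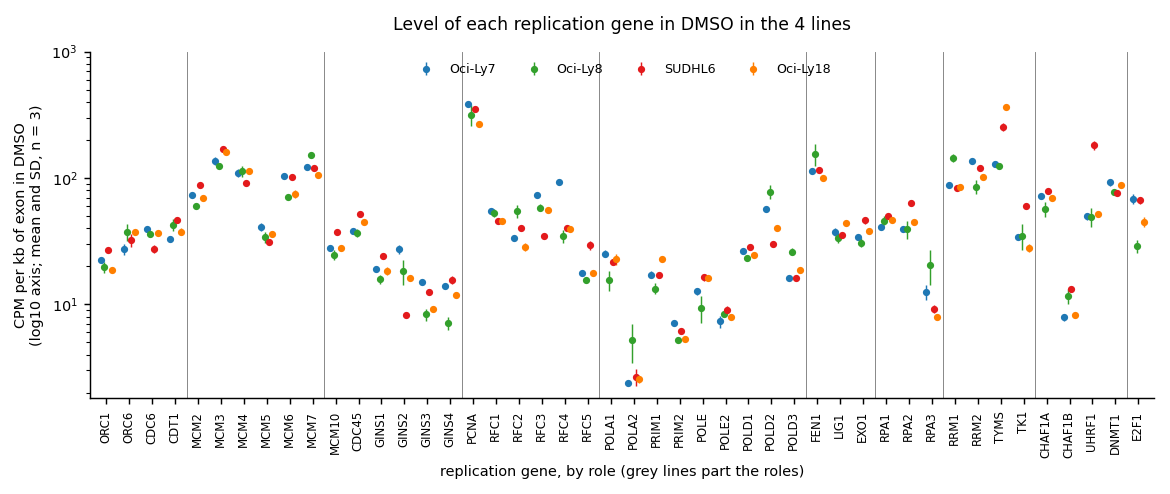
Level of each of the 46 replication genes in DMSO, as CPM per kb of exon on a log10 axis, with points for the mean and bars for the SD of 3 libraries in each of the 4 lines. PCNA and TYMS lie at the top and POLA2 at the bottom, and UHRF1 in SUDHL6 (181 CPM per kb) stands above its level in the other 3 lines.

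Combined inhibition lowered nearly the whole set in 2 of the 4 lines, while most of the set was not called in the other 2. In Oci-Ly18, 43 of the 46 genes were lower with Combo and 0 higher (all genes tested: 14% lower, 21.1% higher), with a median log2 fold change of -0.47 over the 46 beside 0.05 over all genes. In SUDHL6, 41 were lower and 0 higher (all genes: 16.8% and 22.6%), with a median of -0.41 beside 0.05. With replicate number as a block ORC6 and POLD2 were called lower in SUDHL6 as well. In Oci-Ly7, 11 were lower and 5 higher (all genes: 12.2% and 17.7%), with a median of -0.08, and 3 higher without DMSO replicate 1. In Oci-Ly8, 8 were lower and 6 higher (all genes: 16.9% and 18.1%), with a median of -0.02, so both shares lie near the background. The block took the Oci-Ly8 higher count from 6 to 10, adding ORC6, GINS1, GINS3 and TYMS. Over all 17749 genes it took the higher count from 3215 to 3644. In these bulk samples fewer cells in S phase and less RNA per cell cannot be told apart.

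The same contrast shows in single libraries. The median over the 46 genes of log2 CPM minus the DMSO mean was -0.42, -0.46 and -0.51 in the 3 Oci-Ly18 Combo libraries, and between -0.03 and 0.05 in the line's DMSO libraries. SUDHL6 Combo libraries read -0.41, -0.46 and -0.39, against -0.05 to 0.03 in DMSO. Combo and DMSO libraries did not overlap in either line, whereas in Oci-Ly8 they did (-0.07 to 0.05 in Combo, -0.06 to 0.04 in DMSO). Gene by gene, all 3 Combo libraries lay below all 3 DMSO libraries for 45 of the 46 genes in Oci-Ly18 (all genes 22.1%) and for 42 in SUDHL6 (all genes 22.7%). As a share of all counts the 46 genes went from 1.17% ± 0.0326 (SD, n = 3) in DMSO to 0.903% ± 0.0179 with Combo in SUDHL6, and from 0.976% ± 0.0161 to 0.734% ± 0.0217 in Oci-Ly18. In Oci-Ly7 the share was 1.04% ± 0.0339 in DMSO and 1.02% ± 0.00814 with Combo, and in Oci-Ly8 0.906% ± 0.0287 and 0.982% ± 0.0368, where DMSO replicate 3 had the lowest share (0.877%, beside 0.906% and 0.934%).

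**Figure D2:**
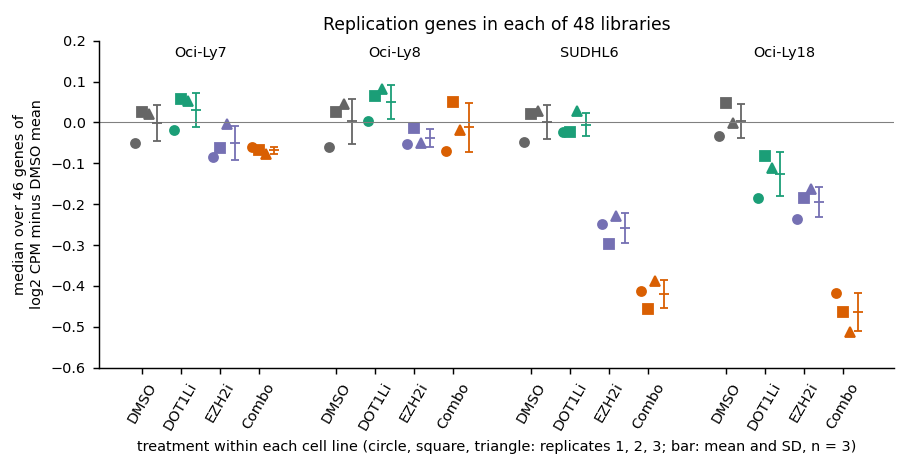
Median over the 46 genes of log2 CPM minus the DMSO mean of the same line, for each of the 48 libraries by line and treatment, with the mean and SD of 3 libraries beside the points. Combo libraries sit between -0.51 and -0.39 in SUDHL6 and Oci-Ly18, and between -0.08 and 0.05 in Oci-Ly7 and Oci-Ly8.

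The EZH2 inhibitor alone lowered many of the genes in SUDHL6 and Oci-Ly18 and few in the other lines. It lowered 33 of the 46 genes in SUDHL6 (all genes: 8.67%; median -0.27 beside 0.04 over all genes) and 26 in Oci-Ly18 (all genes: 9.04%; median -0.20 beside 0.01), with 0 higher in both (all genes: 14% and 13%). In Oci-Ly7 and Oci-Ly8 it lowered 3 each (all genes: 4.92% and 7.94%) and raised 1 each (all genes: 8.78% and 9.04%), with medians of -0.04 in both, so the shares in these 2 lines lie near or below those of all genes. With replicate number as a block the lower count was 6 in Oci-Ly7, with CDC6, RFC4 and POLD3 added (all genes 7.81% in that fit). It was 5 in Oci-Ly8, with GINS2 and PCNA added (all genes 11.5%). RRM2 was called higher in Oci-Ly8 as well. In Oci-Ly8 the count of 3 lower was 11 without DMSO replicate 1, 6 without DMSO replicate 2 and 1 without DMSO replicate 3. With replicate number as a block, TK1 was called higher in Oci-Ly18 and RFC5 in SUDHL6. The Oci-Ly18 count fell to 16 lower without DMSO replicate 2 and to 15 without EZH2i replicate 1. With no filter on low counts it fell to 15 (all genes 3.64% in that fit of 37706 genes).

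With the DOT1L inhibitor alone few members were called, though many lay below DMSO in Oci-Ly18. No member passed in Oci-Ly7 (0 lower and 0 higher, all genes 1.17% and 1.72%), and with replicate number as a block POLD2 and UHRF1 were higher there. In Oci-Ly8 ORC6 and UHRF1 were higher (0 lower and 2 higher, all genes 2.73% and 3.53%), and in SUDHL6 RFC5 was higher (0 lower and 1 higher, all genes 2.11% and 2.76%). In Oci-Ly18 6 genes were lower and 0 higher (all genes 2.12% and 4.03%): ORC1, MCM5, MCM6, RFC1, CHAF1A and DNMT1, with a median of -0.11 over the 46 genes. That count of 6 became 1 without DMSO replicate 2, 2 without DMSO replicate 3 and 1 without DOT1Li replicate 1. With no filter on low counts it was 3 (all genes 1.07% in that fit of 37706 genes). With replicate number as a block it was 12 (all genes 3.7%), where MCM7, GINS2, PCNA, POLE, RPA1 and TK1 were lower as well. In Oci-Ly18 the lower count was 16 in the fit of the line's own libraries (all genes 5.48%). It was 13 without both Oci-Ly8 libraries that stand apart (all genes 3.59%). For 24 of the 46 genes all 3 Oci-Ly18 DOT1Li libraries lay below all 3 DMSO libraries (all genes 10.9%). In SUDHL6 the block added MCM6 as lower.

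**Figure D3:**
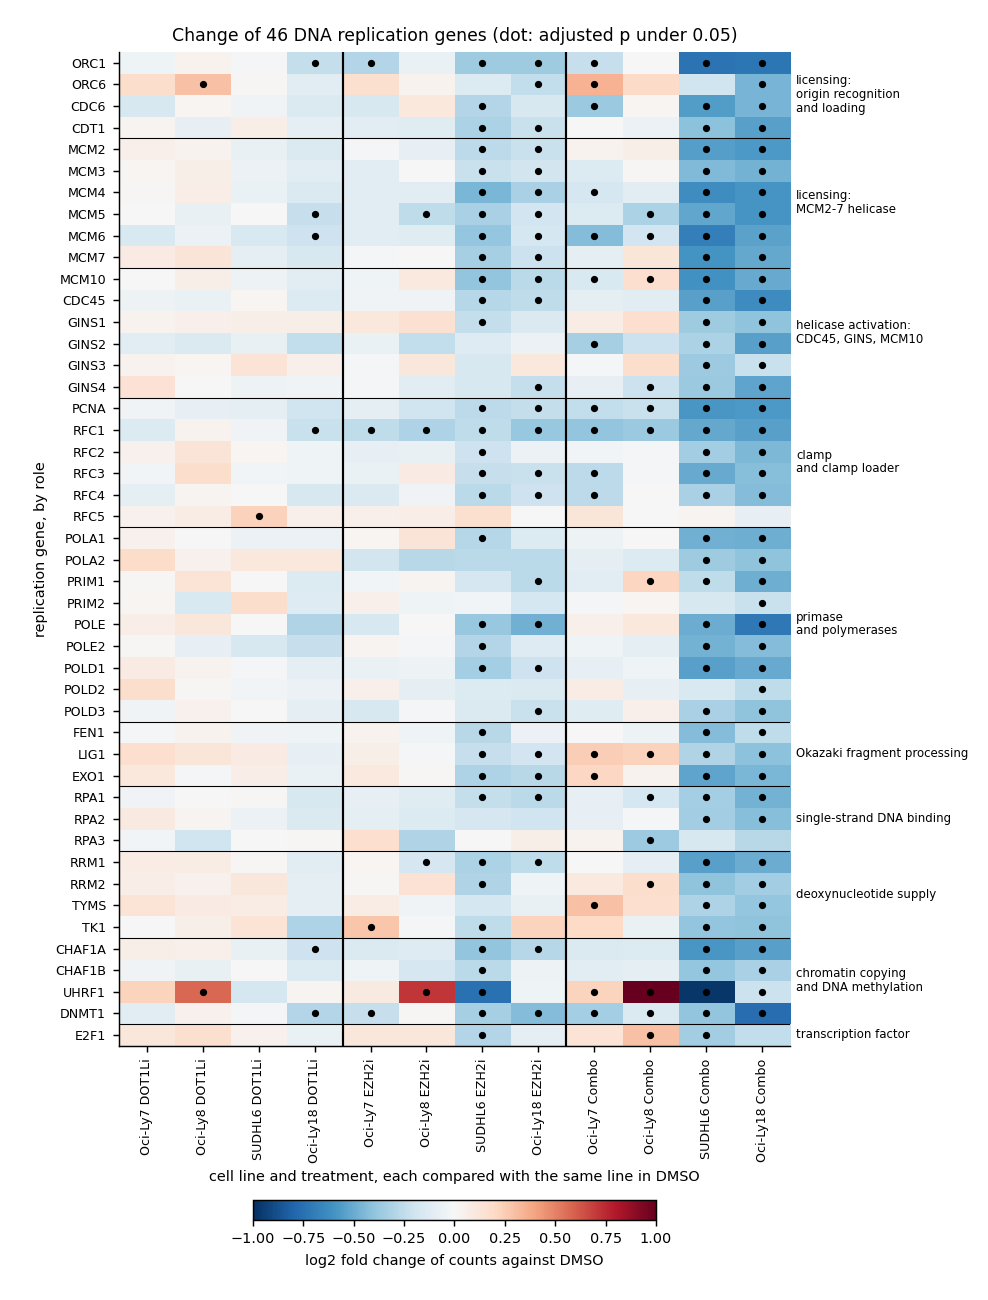
Log2 fold change of each of the 46 replication genes (rows, by role) against DMSO in the 12 combinations of line and treatment (columns), with blue for lower, red for higher and a black dot for an adjusted p under 0.05. The Combo columns of SUDHL6 (41 dots, all lower) and Oci-Ly18 (43 dots, all lower) are blue almost throughout, and UHRF1 is the one row that holds both the deepest red and the deepest blue.

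With Combo in SUDHL6 and in Oci-Ly18, the MCM helicase had the lowest median log2 fold change of the 9 roles with more than 1 gene. All 6 MCM2 to MCM7 genes were lower with EZH2i and with Combo in both SUDHL6 and Oci-Ly18, with Combo medians of -0.57 and -0.55. Over all genes the lower shares in these lines were 8.67% and 9.04% with EZH2i and 16.8% and 14% with Combo. MCM6 (ENSG00000076003, chr2:135839626-135876443) had the smallest adjusted p of this role in the average over lines, -0.46 (SE 0.030, adjusted p = 2.10e-17). In SUDHL6 it read 405, 411 and 429.5 CPM in DMSO, 320.0, 301 and 332 with EZH2i and 255, 245 and 275 with Combo. Every Combo library lay below every EZH2i library and those below every DMSO library, a change of -0.69 (SE 0.061, adjusted p = 9.04e-13) for Combo, or 1.61-fold lower. In Oci-Ly18 the gene read 287, 332 and 303 CPM in DMSO and 216, 219 and 202 with Combo, -0.53 (SE 0.061, adjusted p = 9.01e-10).

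MCM6 was also the member that fell most in Oci-Ly7 with Combo, from 417, 437 and 435 CPM to 329, 307 and 316, -0.44 (SE 0.060, adjusted p = 9.75e-08). In Oci-Ly8 it went from 290.1, 299 and 284 to 244, 272 and 248 CPM, -0.19 (SE 0.061, adjusted p = 0.0124), and again the groups did not overlap. Together with PCNA, RFC1 and DNMT1 it is 1 of 4 members that were lower with Combo in all 4 lines. Another 10 were lower in 3 lines, 26 in 2, 5 in 1 and RFC5 in 0. The matching shares of all genes were not counted, so these numbers have no background beside them. The Oci-Ly8 calls of PCNA and DNMT1 were lost in some runs with 1 library left out. In Oci-Ly8 the MCM6 call was lost with median-of-ratios scaling, with no filter on low counts, in the fit of the line's own libraries and without Combo replicate 1.

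MCM2, another helicase subunit, differed between lines in its Combo effect more than any member but UHRF1 (adjusted p = 6.71e-11). It read 429, 435 and 429 CPM in DMSO and 292, 292 and 299.7 with Combo in SUDHL6, and 327, 364 and 337 against 240.2, 226 and 226 in Oci-Ly18. In Oci-Ly7 it stood at 346, 369 and 359 in DMSO and 356, 374 and 373 with Combo, with ranges that overlap. The changes were -0.55 (SE 0.057, adjusted p = 7.63e-11) in SUDHL6 and -0.57 (SE 0.058, adjusted p = 3.22e-11) in Oci-Ly18, beside 0.04 and 0.06 in Oci-Ly7 and Oci-Ly8, which were not called. MCM7 gave -0.60 (SE 0.061, adjusted p = 4.56e-11) in SUDHL6 and -0.51 (SE 0.061, adjusted p = 3.01e-09) in Oci-Ly18, beside -0.09 and 0.12. With DOT1Li alone MCM7 read 742, 742 and 713 CPM in Oci-Ly8 against 649, 710.1 and 648 in DMSO, and 387, 435 and 419.8 in Oci-Ly18 against 446, 488 and 452. Its difference between lines under DOT1Li had an adjusted p of 0.0671.

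Among the loading factors ORC1, a subunit of the origin recognition complex that binds ATP, was the leading gene, with an average Combo change of -0.42 (SE 0.035, adjusted p = 3.64e-14). It fell from 81.5, 85.7 and 88.4 CPM in DMSO to 51.9, 48.8 and 52.1 with Combo in SUDHL6 (1.67-fold lower) and from 57.5, 59.2 and 59.7 to 36.8, 36.4 and 33.8 in Oci-Ly18 (1.65-fold lower). In Oci-Ly7 it went from 69.6, 73.6 and 70.2 to 55.4, 59.9 and 58.8 with EZH2i, -0.29 (SE 0.069, adjusted p = 0.00178), the lowest change of any member there under that inhibitor. In Oci-Ly8 its Combo change was 0.00 and its libraries overlapped. CDC6, which helps ORC load the helicase, changed by -0.56 (SE 0.063, adjusted p = 7.61e-10) with Combo in SUDHL6, -0.47 (SE 0.063, adjusted p = 4.47e-08) in Oci-Ly18 and -0.37 (SE 0.062, adjusted p = 4.43e-06) in Oci-Ly7, and by 0.02 in Oci-Ly8. In SUDHL6 it read 140.3, 155 and 161 CPM in DMSO and 97, 106 and 108 with Combo, without overlap, and in Oci-Ly8 189.9, 212 and 199 and 197, 212 and 199.8, with overlap. CDT1, the other loader, changed by -0.41 and -0.55 with Combo in SUDHL6 and Oci-Ly18, both called.

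ORC6, the smallest ORC subunit, went in opposite directions. It rose in Oci-Ly7 with Combo from 104, 120.4 and 127 CPM to 139, 153 and 156, 0.35 (SE 0.092, adjusted p = 0.00259), the highest change of any member in that comparison. In Oci-Ly18 it fell from 168, 155 and 161 to 123, 117 and 110.0 CPM, -0.47 (SE 0.093, adjusted p = 6.88e-05). All Combo libraries were above all DMSO libraries in Oci-Ly7 and below them in Oci-Ly18. With DOT1Li in Oci-Ly8 it read 181, 191 and 226 against 142, 154 and 190.0 CPM, 0.29 (SE 0.093, adjusted p = 0.0483), with overlapping libraries, the third replicate highest in both groups, and a call lost in 4 of 6 cases when 1 library was left out. Without both Oci-Ly8 libraries that stand apart the change was 0.32 and still called.

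All 6 genes of helicase activation were lower with Combo in SUDHL6 and in Oci-Ly18 (medians -0.36 and -0.51, all genes 16.8% and 14% lower). With EZH2i 3 of 6 were lower in each (all genes 8.67% and 9.04%). CDC45, the factor that joins MCM and GINS into the active helicase, had the smallest adjusted p on average, -0.34 (SE 0.030, adjusted p = 2.14e-13). It read 126, 130.3 and 125 CPM in DMSO and 87.9, 80.3 and 78.1 with Combo in Oci-Ly18, and 140.5, 149.7 and 153 against 103, 99.7 and 102 in SUDHL6. In Oci-Ly7 and Oci-Ly8 its Combo changes of -0.10 and -0.11 were not called. MCM10, which is needed for the helicase to start moving, was lower in 3 lines and higher in 1: -0.61 in SUDHL6, -0.50 in Oci-Ly18, -0.16 (SE 0.061, adjusted p = 0.0488) in Oci-Ly7 and 0.17 (SE 0.062, adjusted p = 0.0274) in Oci-Ly8. In Oci-Ly8 it read 128, 148 and 128 CPM in DMSO and 144, 166 and 145 with Combo, which overlap. Both calls near the threshold were lost when single libraries were left out, in 6 of 6 cases in Oci-Ly7 and in 3 of 6 in Oci-Ly8. Under EZH2i MCM10 differed between lines (adjusted p = 6.39e-05), with 155, 148 and 165 CPM in SUDHL6 against 194, 212 and 207 in DMSO, and 140.2, 148 and 144 in Oci-Ly8. GINS2 was lower in Oci-Ly7 (-0.33), SUDHL6 (-0.32) and Oci-Ly18 (-0.54) with Combo.

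In the clamp and its loader, 5 of 6 genes were lower with Combo in both SUDHL6 and Oci-Ly18 (all genes 16.8% and 14%). In Oci-Ly7 4 of 6 were lower (all genes 12.2%). RFC1 (ENSG00000035928, chr4:39287456-39366375), the large subunit of the clamp loader, was lower with EZH2i and with Combo in all 4 lines, and no other member was. It read 362, 378 and 358 CPM in DMSO and 300.4, 271 and 262 with Combo in Oci-Ly7, 344, 334 and 384 and 266, 278 and 277 in Oci-Ly8, 298, 312 and 304 and 214, 209.6 and 217 in SUDHL6, and 301, 314 and 305 and 221, 209 and 200.2 in Oci-Ly18. No Combo library reached a DMSO library in any of the 4 lines. The average change was -0.46 (SE 0.031, adjusted p = 4.21e-17), and the difference between lines in the Combo effect of RFC1 was not called. PCNA, the clamp itself, changed by -0.58 (SE 0.085, adjusted p = 2.16e-07) in SUDHL6 and -0.58 (SE 0.085, adjusted p = 3.63e-07) in Oci-Ly18. Its Oci-Ly8 call is uncertain: it read 402, 431 and 563 CPM in DMSO and 388, 412 and 392 with Combo, and the change of -0.23 became -0.07 without DMSO replicate 3, the highest library, and the call was lost without that library, without Combo replicate 1 and without Combo replicate 3.

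RFC5, a small subunit of the same loader, was the exception in the group and in the whole set. It read 87.4, 104 and 94.4 CPM in DMSO, 110.1, 115 and 109.5 with the DOT1L inhibitor, 108, 112 and 101 with EZH2i and 102, 104 and 85.9 with Combo in SUDHL6. Only the DOT1Li change was called, 0.23 (SE 0.068, adjusted p = 0.0367), and that call was lost in 4 of 6 cases when 1 library was left out. In Oci-Ly18 it read 57.6, 56.4 and 59.9 CPM in DMSO and 57.1, 56.8 and 50.7 with Combo, -0.08 and not called. RFC4, by contrast, fell in Oci-Ly7 from 265, 281 and 284 to 237, 223 and 230.3 CPM, -0.26 (SE 0.061, adjusted p = 5.79e-04), in SUDHL6 by 0.32 and in Oci-Ly18 by 0.44 on the log2 scale.

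**Figure D4:**
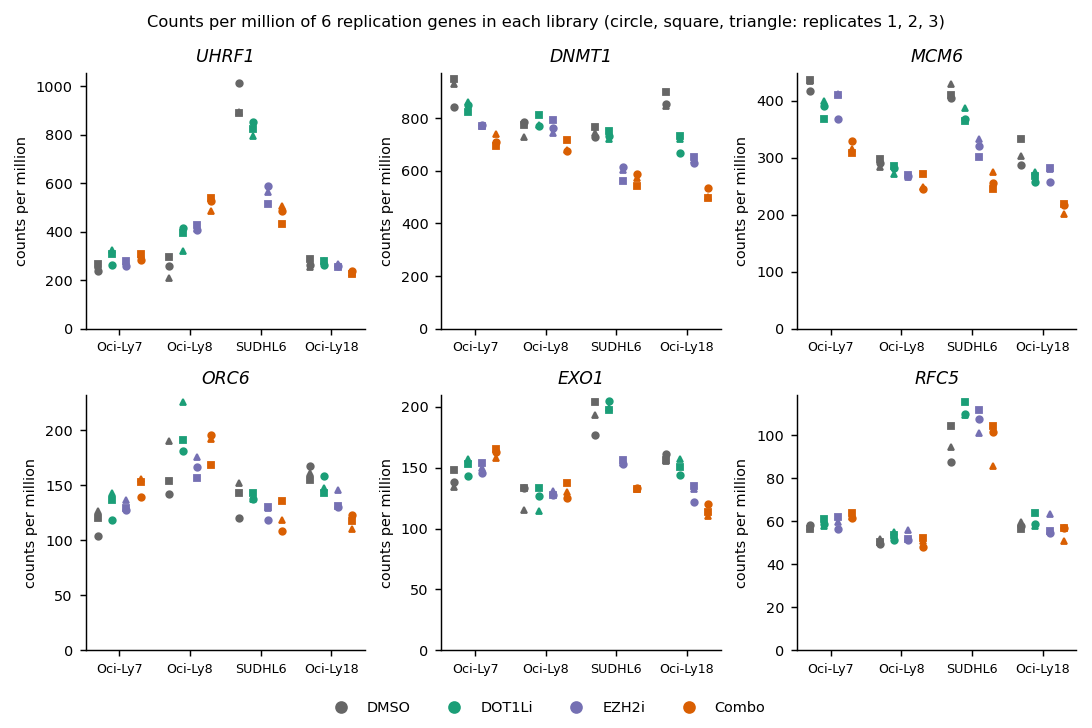
CPM of 6 replication genes in each of the 48 libraries, by line (x axis) and treatment (colour), on linear axes that start at 0. UHRF1 is higher with Combo in Oci-Ly8 and lower in SUDHL6, DNMT1 and MCM6 are lower with Combo in all 4 lines, ORC6 and EXO1 are higher in Oci-Ly7 and lower in Oci-Ly18, and Combo and DMSO libraries of RFC5 overlap in Oci-Ly8, SUDHL6 and Oci-Ly18.

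All 9 primase and polymerase genes were lower with Combo in Oci-Ly18 (all genes 14%) and 7 of 9 in SUDHL6 (all genes 16.8%). In Oci-Ly7 and Oci-Ly8 0 were lower (all genes 12.2% and 16.9%). POLD1, the catalytic subunit of polymerase delta, had the smallest adjusted p on average, -0.29 (SE 0.029, adjusted p = 1.09e-11). It read 134, 146 and 142 CPM in DMSO and 98, 95.1 and 97.4 with Combo in SUDHL6, and 118, 122 and 125 and 91.9, 83.4 and 82.4 in Oci-Ly18. POLE, the catalytic subunit of polymerase epsilon, fell further in Oci-Ly18, from 263, 279.7 and 259 CPM to 183, 197 and 194 with EZH2i, -0.48 (SE 0.108, adjusted p = 7.62e-04), and to 174, 151 and 163 with Combo, -0.71 (SE 0.109, adjusted p = 1.02e-06). In Oci-Ly8 POLE read 165, 189.8 and 115 CPM in DMSO and 176, 201 and 127 with DOT1Li, and both low values are the third replicates that stand apart in length dependence.

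PRIM1, which makes the RNA primer, was called lower with Combo in SUDHL6, -0.25 (SE 0.074, adjusted p = 0.00509), and in Oci-Ly18, -0.49 (SE 0.074, adjusted p = 5.16e-07), and higher in Oci-Ly8, 0.21 (SE 0.077, adjusted p = 0.0274). It read 32.1, 29.4 and 36 CPM in DMSO and 36.8, 38 and 38 with Combo in Oci-Ly8, groups that do not overlap although the call was lost in 4 of 6 cases when 1 library was left out, and 52.9, 56.1 and 56.9 and 39.7, 38.5 and 39.8 in Oci-Ly18. POLA2 was the least expressed member and read 15.4, 13.8 and 14.5 CPM in DMSO, 14.5, 17.6 and 14.9 with DOT1Li and 11.6, 10.4 and 11 with Combo in Oci-Ly18, -0.40 (SE 0.150, adjusted p = 0.0324). That call was lost in 4 of 6 cases when 1 library was left out.

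Lagging strand genes divided the lines. FEN1, LIG1 and EXO1 were all lower with EZH2i and Combo in SUDHL6 and with Combo in Oci-Ly18, while LIG1 and EXO1 were higher with Combo in Oci-Ly7 and LIG1 in Oci-Ly8. LIG1, the ligase that joins Okazaki fragments, read 226, 259 and 251 CPM in DMSO and 288, 306 and 281 with Combo in Oci-Ly7, 0.25 (SE 0.070, adjusted p = 0.00505). In Oci-Ly8 it went from 238, 224 and 201 to 257, 277 and 243, 0.23 (SE 0.071, adjusted p = 0.00912). Combo libraries lay above DMSO libraries in both lines, and the call was lost in 1 of 6 cases in Oci-Ly7 and 2 of 6 in Oci-Ly8 when 1 library was left out. In Oci-Ly18 the ligase fell from 278, 299 and 293 to 225, 216 and 215 CPM and in SUDHL6 from 220.3, 238 and 239 to 191, 189.9 and 185. The exonuclease EXO1 read 138, 148 and 134 CPM in DMSO and 163, 165 and 158 with Combo in Oci-Ly7, 0.21 (SE 0.061, adjusted p = 0.00662). It fell from 177, 204 and 193 to 134, 132 and 132 in SUDHL6 and from 161, 156 and 156 to 120.3, 114 and 111 in Oci-Ly18, and its Combo effect differed between lines (adjusted p = 1.92e-10).

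RPA1 and RPA2, the larger subunits of the single-strand binding complex, were lower with Combo in SUDHL6 and Oci-Ly18, and RPA3 was not called in either. RPA1 read 264, 274 and 281 CPM in DMSO and 217, 214 and 216 with Combo in SUDHL6, and 248, 262 and 250.3 and 188, 185 and 173 in Oci-Ly18, with an average change of -0.27 (SE 0.029, adjusted p = 1.01e-10). RPA3 was called lower in Oci-Ly8 alone, from 56.6, 53.1 and 89.8 CPM in DMSO to 46.2, 54.4 and 54.2 with Combo, -0.36 (SE 0.140, adjusted p = 0.0403). The groups overlap, the change was -0.09 without DMSO replicate 3, which holds the high value, and the call was lost without that library, without Combo replicate 1 and without Combo replicate 2.

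All 4 genes of deoxynucleotide supply were lower with Combo in SUDHL6 and Oci-Ly18 (all genes 16.8% and 14%). In Oci-Ly7 and Oci-Ly8 none was lower and 1 each was higher. With 4 genes these counts cannot be set apart from the shares of all genes (12.2% and 16.9% lower, 17.7% and 18.1% higher). RRM1, the large subunit of ribonucleotide reductase, fell from 335, 349 and 352 to 239, 227 and 246 CPM in SUDHL6 and from 339, 373 and 357 to 262, 254 and 241 in Oci-Ly18, with an average change of -0.28 (SE 0.030, adjusted p = 6.95e-11). RRM2, its small subunit, read 411, 518 and 436 CPM in DMSO and 497, 553 and 493 with Combo in Oci-Ly8, 0.18 (SE 0.065, adjusted p = 0.0292), with overlapping groups and a call lost in 3 of 6 cases when 1 library was left out, and 604, 658 and 654 against 499, 476 and 476 in SUDHL6, -0.40 (SE 0.065, adjusted p = 1.83e-06). TYMS rose in Oci-Ly7 from 304, 324 and 333 to 363, 426 and 389 CPM, 0.29 (SE 0.070, adjusted p = 9.54e-04), and fell in Oci-Ly18 from 869, 913 and 917 to 682, 699 and 685, -0.39 (SE 0.070, adjusted p = 1.59e-05). Every Combo library was above DMSO in the former and below it in the latter.

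TK1, thymidine kinase of the salvage route, was the member whose EZH2i and Combo values differed most in Oci-Ly18. It read 48, 55.5 and 51.8 CPM in DMSO, 36.9, 42.8 and 45.6 with the DOT1L inhibitor, 58.5, 60.3 and 62 with EZH2i and 37.9, 41.9 and 38.1 with Combo. All EZH2i libraries lay above DMSO and all Combo and DOT1Li libraries below it. Combo against EZH2i gave -0.62 (SE 0.102, adjusted p = 1.68e-05), and against DOT1Li -0.09 (SE 0.104, adjusted p = 0.612). Under EZH2i it was called higher in Oci-Ly7, 62.6, 64.2 and 63.7 against 69.9, 84.6 and 76.4 CPM, 0.28 (SE 0.097, adjusted p = 0.0487), and lower in SUDHL6, 109, 113 and 113 against 94.2, 93.8 and 93.6, -0.25 (SE 0.095, adjusted p = 0.0485). Both of these calls were lost when single libraries were left out, in 5 and in 6 of 6 cases.

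The genes that copy chromatin and DNA methylation held the widest contrast. UHRF1 rose in Oci-Ly8 and fell in SUDHL6. In Oci-Ly8 it read 258, 294 and 207 CPM in DMSO, 416, 395 and 319 with the DOT1L inhibitor, 409, 426 and 411 with EZH2i and 529, 541 and 488 with Combo. All treated libraries were above all DMSO libraries, with changes of 0.58 (SE 0.087, adjusted p = 1.11e-05), 0.71 (SE 0.087, adjusted p = 2.14e-08) and 1.04 (SE 0.087, adjusted p = 1.44e-13), the last 2.05-fold. The Combo change stayed between 0.91 and 1.16 when single libraries were left out. Without both libraries that stand apart the 3 changes were 0.55, 0.59 and 0.90, all called.

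In SUDHL6 UHRF1 read 1014, 891 and 895 CPM in DMSO, 855, 826 and 797 with the DOT1L inhibitor, 589, 515 and 563 with EZH2i and 485, 433 and 507 with Combo. EZH2i and Combo libraries lay below every DMSO library, with changes of -0.75 (SE 0.086, adjusted p = 4.27e-09) and -0.97 (SE 0.086, adjusted p = 8.54e-13), the latter 1.96-fold lower. The Combo libraries of SUDHL6 and Oci-Ly8 therefore span overlapping levels, which their DMSO libraries do not. In Oci-Ly7 the gene went from 239, 267 and 260.4 to 285, 308 and 304 CPM, 0.23 (SE 0.086, adjusted p = 0.0418), and in Oci-Ly18 from 263, 286 and 255 to 236, 224 and 231, -0.22 (SE 0.087, adjusted p = 0.0453); both calls lie near the threshold and were lost in 4 and 5 of 6 cases when 1 library was left out. The difference between lines had adjusted p values of 1.80e-04 for DOT1Li, 7.31e-12 for EZH2i and 3.03e-17 for Combo.

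DNMT1 (ENSG00000130816, chr19:10133342-10231286), the maintenance DNA methyltransferase, was lower with Combo in all 4 lines, unlike UHRF1. Its largest change was in Oci-Ly18, where it read 853, 901 and 846 CPM in DMSO, 667, 733 and 723 with the DOT1L inhibitor, 631, 651 and 643 with EZH2i and 535, 497 and 502 with Combo. The 4 groups do not overlap and stand in that order from high to low, and the changes were -0.29 (SE 0.055, adjusted p = 2.53e-04), -0.43 (SE 0.056, adjusted p = 2.84e-08) and -0.76 (SE 0.056, adjusted p = 1.86e-15). In Oci-Ly7 it fell from 842, 949 and 929.9 to 711, 694 and 741 CPM, in SUDHL6 from 730.0, 768 and 743 to 588, 544 and 571, and in Oci-Ly8 from 785, 774 and 729 to 676, 718 and 680.2, -0.14 (SE 0.055, adjusted p = 0.0424), a call lost in 4 of 6 cases when 1 library was left out. The difference between lines had adjusted p values of 0.0188 for DOT1Li, 1.47e-04 for EZH2i and 1.03e-07 for Combo. CHAF1A and CHAF1B, subunits of the histone chaperone CAF-1, changed by -0.58 and -0.39 with Combo in SUDHL6 and by -0.54 and -0.33 in Oci-Ly18, all 4 called.

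E2F1, the transcription factor of the set, lay just outside the threshold with Combo in Oci-Ly18. It read 100.4, 119 and 117 CPM in DMSO and 94.2, 96.9 and 93.2 with Combo there, -0.24 (adjusted p = 0.0533), and no Combo library reached DMSO. With replicate number as a block it was called lower there (adjusted p = 0.00754). In SUDHL6 it fell from 159.5, 179 and 159 to 129, 140.5 and 122, -0.35 (SE 0.098, adjusted p = 0.00364). In Oci-Ly8 it read 69.2, 65.7 and 82.2 in DMSO and 85.3, 92.1 and 88.3 with Combo, 0.29 (SE 0.103, adjusted p = 0.022), lost in 4 of 6 cases when 1 library was left out. Averaged over lines its Combo change was -0.04 (SE 0.050, adjusted p = 0.579). Promoters with an E2F match had a median Combo change of -0.41 in SUDHL6 (17 genes) beside -0.37 for the 14 without one, and -0.47 for both in Oci-Ly18.

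Whether the second inhibitor added to the first was asked by comparing Combo with each single agent. Against EZH2i, Combo was lower for 34 of the 46 genes in Oci-Ly18 (all genes 5.1%; median -0.27) and for 14 in SUDHL6 (all genes 3.69%; median -0.18), with 0 higher in both lines (all genes 7.69% and 3.43%), and all 46 differences were negative in each. In Oci-Ly7 4 genes were lower and TYMS was higher (all genes 3.6% and 5.23%), and in Oci-Ly8 0 were lower and LIG1, TYMS and UHRF1 were higher (all genes 7.61% and 9.82%). MCM6 was lower than with EZH2i in Oci-Ly7, -0.32 (SE 0.060, adjusted p = 1.54e-04), in SUDHL6, -0.30 (SE 0.061, adjusted p = 9.58e-04), and in Oci-Ly18, -0.36 (SE 0.061, adjusted p = 2.61e-05). The Oci-Ly7 counts were small and uncertain: the lower count was 2 without EZH2i replicate 2 and 1 without EZH2i replicate 3, Combo replicate 2 or Combo replicate 3, and the higher call of TYMS was lost in 5 of 6 cases. The Oci-Ly8 higher count of 3 was 1 without EZH2i replicate 1, EZH2i replicate 3 or Combo replicate 2. With replicate number as a block 3 genes were higher in Oci-Ly7 (1337 of all 17749 genes in that fit). In Oci-Ly8 1 was lower and 5 higher (all genes 10.8% lower, and 2148 of 17749 higher). The SUDHL6 count of 14 was 23 with replicate number as a block (all genes 7.16% in that fit). It was 7 without EZH2i replicate 3, 8 without Combo replicate 1 and 8 without Combo replicate 2.

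Against DOT1Li, Combo was lower for 42 genes in SUDHL6 (all genes 11.2%), 39 in Oci-Ly18 (all genes 8.9%), 13 in Oci-Ly7 (all genes 6.76%) and 7 in Oci-Ly8 (all genes 8.61%), and UHRF1 in Oci-Ly8 was the only member higher in any line (all genes 11.3% higher in Oci-Ly7, 10.8% in Oci-Ly8, 14.3% in SUDHL6 and 12.7% in Oci-Ly18). Leaving out any single Oci-Ly7 library of this comparison other than DOT1Li replicate 1 took the count of 13 to between 4 and 8, and the Oci-Ly8 count of 7 was 4 without DOT1Li replicate 2, 1 without Combo replicate 1 and 2 without Combo replicate 3. Without both Oci-Ly8 libraries that stand apart it was 6, with 2 higher (all genes 8.4% lower, and 1811 of 18137 higher). With replicate number as a block 3 genes were higher in Oci-Ly7 (2476 of all 17749 genes). On average over the lines 42 genes were lower than with DOT1Li (all genes 15.8% lower, 19.4% higher) and 28 were lower than with EZH2i (all genes 12.2% and 12.8%), with 0 higher in both. Combo minus both single effects was called for RFC3 alone, -0.22 (SE 0.042, adjusted p = 0.0173), among 9 of 17749 genes (0.0507%; 0.0282% lower and 0.0225% higher). Of the 46 differences 45 were negative, with a median of -0.09 beside -0.00 over all genes, and the RFC3 call was lost without SUDHL6 EZH2i replicate 1 and without SUDHL6 Combo replicate 2.

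Averaged over the 4 lines with equal weight, Combo lowered 40 of the 46 genes (all genes 20.7%), EZH2i 31 (all genes 12.5%) and DOT1Li 3, GINS2, MCM6 and DNMT1, a share near the background (all genes 5.19%), while UHRF1 was higher with DOT1Li (all genes 5.08%) and no member was higher with EZH2i or Combo (all genes 15.7% and 25.7%). These averages cover unlike lines: the Combo effect differed between lines for 40 of the 46 genes (all genes 43.8%) and the EZH2i effect for 16 (all genes 24%). The DOT1Li effect differed for UHRF1 and DNMT1, 2 genes, a share near the background (all genes 5.14%). The average DOT1Li count of 3 lower was 6 with replicate number as a block (all genes 7.87%), where ORC6 and RFC5 were higher beside UHRF1. It was 7 without Oci-Ly8 DMSO replicate 1 and 5 without Oci-Ly7 DOT1Li replicate 1 or Oci-Ly8 DOT1Li replicate 3. It was 1 without Oci-Ly18 DOT1Li replicate 1. The count of 2 that differed between lines under DOT1Li was 7 with the block, 6 without both Oci-Ly8 libraries that stand apart and 5 with DESeq2. The EZH2i count of 16 was 28, 28 and 26. The share of all genes that differed was not counted in those fits, so these counts have no background beside them. Of the genes lower with Combo, 40 were shared by SUDHL6 and Oci-Ly18 (all genes 7.18%). That is 97.6% of the SUDHL6 list and 93% of the Oci-Ly18 list. With 41 and 43 of the 46 genes on these lists, a large overlap was fixed in advance by their sizes. With EZH2i, where the lists held 33 and 26 genes, 22 were shared (66.7% and 84.6%, all genes 2.56%). These percentages therefore do not measure agreement between the lines. Within the set, Combo effects in these 2 lines had a Pearson r of 0.46 over 46 genes. That value is not particular to them. Oci-Ly7 gave an r of 0.52 with Oci-Ly8, 0.47 with Oci-Ly18 and 0.29 with SUDHL6. Oci-Ly8 gave 0.35 with Oci-Ly18 and -0.25 with SUDHL6. These values describe genes that are not independent. Opposite calls under Combo in different lines were found for 9 members: ORC6, MCM10, PRIM1, LIG1, EXO1, RRM2, TYMS, UHRF1 and E2F1 (all genes 9.65%). For ORC6, EXO1, TYMS and UHRF1 a call in each direction was kept when any single library was left out, and for MCM10, PRIM1, RRM2 and E2F1 the higher call, in Oci-Ly8, was lost in 3 or 4 of 6 cases. The LIG1 higher call was lost in Oci-Ly7 without DMSO replicate 1, and in Oci-Ly8 without DMSO replicate 3 or Combo replicate 2.

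The Oci-Ly8 counts with Combo are the least certain. Against 8 lower and 6 higher, scaling by median-of-ratios size factors gave 2 lower and 11 higher and DESeq2 4 and 11. The fit without both Oci-Ly8 libraries that stand apart gave 5 lower and 6 higher. The lower shares of all genes in these fits, in that order, were 14.4%, 14.6% and 15.5%, beside 16.9% in the reported fit. That last fit kept the calls of MCM5, MCM6, RFC1, RPA1, DNMT1, PRIM1, UHRF1 and E2F1 and lost those of MCM10, GINS4, PCNA, LIG1, RPA3 and RRM2, and with EZH2i it lost that of RRM1. Its Oci-Ly8 medians over the 46 genes were 0.04 for DOT1Li, -0.02 for EZH2i and -0.00 for Combo. Without DMSO replicate 3 there were 5 lower, without Combo replicate 1 3 and without Combo replicate 3 5, and the higher count was 2 without DMSO replicate 1 and 2 without Combo replicate 2. MCM5, RFC1 and UHRF1 kept their Combo calls in Oci-Ly8 when any single library was left out. The counts in SUDHL6 (40 to 42 lower) and Oci-Ly18 (39 to 42 lower) with Combo moved little when single libraries were left out.

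Other genes of the cell cycle, from lists made for comparison, were also lower in SUDHL6 and Oci-Ly18. Among all genes, Combo lowered 16.8% and raised 22.6% in SUDHL6, and in Oci-Ly18 14% and 21.1%; the Oci-Ly8 values were 16.9% and 18.1%, those of Oci-Ly7 12.2% and 17.7%. Of 42 other replication genes, 28 were lower and 1 higher with Combo in SUDHL6 and 30 lower and 0 higher in Oci-Ly18, against 7 lower and 4 higher in Oci-Ly7 and 10 lower and 6 higher in Oci-Ly8. The lower shares of this list in Oci-Ly7 and Oci-Ly8, 16.7% and 23.8%, lie nearer to those of all genes. DBF4, the activator of the origin-firing kinase CDC7, changed by -0.68 in SUDHL6 (adjusted p = 1.42e-10) and -0.54 in Oci-Ly18 (adjusted p = 5.21e-08), and the fork protection gene TIMELESS by -0.57 in Oci-Ly18 (adjusted p = 3.23e-10). In Oci-Ly7 the leading gene was TIPIN, the partner of TIMELESS, at -0.61 (adjusted p = 3.99e-06), and in Oci-Ly8 the histone chaperone ASF1A, at -0.66 (adjusted p = 4.98e-07). Of 39 mitosis genes tested, 25 were lower and 0 higher in SUDHL6 and 32 and 0 in Oci-Ly18, while in Oci-Ly7 1 was lower and 10 higher and in Oci-Ly8 4 and 12. The mitotic kinase gene PLK1 changed by -0.80 in SUDHL6 (adjusted p = 1.98e-10), and TOP2A, the topoisomerase of chromosome condensation, by 0.44 in Oci-Ly7 (adjusted p = 2.43e-07).

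Of 16 E2F and RB family genes, 7 were lower and 1 higher with Combo in both SUDHL6 and Oci-Ly18, 2 lower and 6 higher in Oci-Ly7 and 1 lower and 6 higher in Oci-Ly8. E2F2, an activating E2F, changed by -1.01 in SUDHL6 (adjusted p = 6.84e-16) and -0.91 in Oci-Ly18 (adjusted p = 2.34e-14). E2F7, a repressing E2F, was higher by 1.17 in Oci-Ly7 (adjusted p = 3.98e-10) and by 0.85 in Oci-Ly8 (adjusted p = 1.76e-06). TFDP2, which pairs with E2F proteins, changed by -0.86 in SUDHL6 and by 0.64 in Oci-Ly18 (adjusted p = 9.84e-16 and 3.95e-12). Of 20 G1 to S cyclins, kinases and inhibitors, 11 were lower and 1 higher in SUDHL6 and 10 and 2 in Oci-Ly18, against 3 lower in each of the other lines, with 7 higher in Oci-Ly7 and 5 in Oci-Ly8. Cyclin D3 (CCND3) changed by -0.85 in SUDHL6, -1.61 in Oci-Ly18 and 0.56 in Oci-Ly8 (adjusted p = 4.97e-13, 1.34e-21 and 1.12e-07), and cyclin D2 (CCND2) by 2.19 in SUDHL6 and 3.24 in Oci-Ly18 (adjusted p = 2.71e-10 and 1.05e-12).

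**Figure D5:**
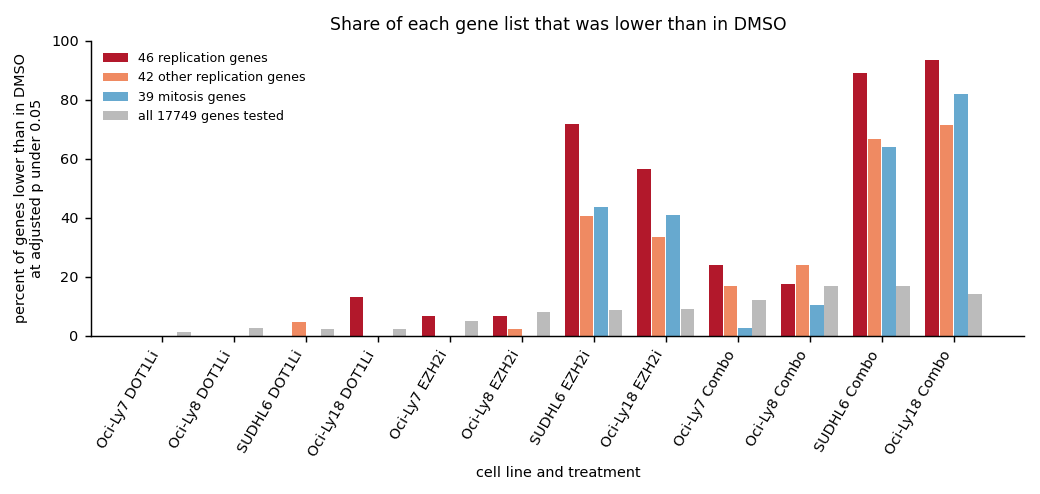
Percent of genes lower than in DMSO at an adjusted p under 0.05, for the 46 replication genes, 42 other replication genes, 39 mitosis genes and all 17749 genes tested, in the 12 combinations of line and treatment. With Combo the 46 genes reach 89.1% in SUDHL6 and 93.5% in Oci-Ly18, beside 23.9% in Oci-Ly7 and 17.4% in Oci-Ly8, where all genes stand at 12.2% and 16.9%.

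Markers of other cells moved with Combo too. The summed level of 6 epithelial and fibroblast markers was 8.67 to 10.2 CPM in DMSO and 23.3 to 31.1 CPM with Combo in SUDHL6, and 5.41 to 7.90 and 21.5 to 25.6 CPM in Oci-Ly18. It was also higher in Oci-Ly7 (1.59 to 2.43 CPM in DMSO, 5.07 to 7.19 with Combo) and Oci-Ly8 (0 to 0.172 and 2.82 to 3.78). All 5 of these markers with enough counts for testing were higher with Combo in Oci-Ly18, by 1.58 to 2.40 on the log2 scale, and COL1A1 and PDGFRB were the 2 called higher in each of the other lines. EPCAM was at most 0.168 CPM in any library and was not tested. The sum of 5 NK markers, nearly all NCAM1, went from 11.7 to 12.7 CPM in DMSO up to 17.3 to 22.5 CPM with Combo in Oci-Ly18, where NCAM1 was called higher (0.69, adjusted p = 7.51e-04), and was at most 1.75 CPM in DMSO and Combo libraries of the other lines. The sum of 5 myeloid markers stood at 0.202 to 0.439 CPM in DMSO and 1.13 to 2.44 with Combo in Oci-Ly7, at 10.1 to 12.5 and 13.5 to 15.7 in Oci-Ly8, at 0.159 to 0.570 and 0.489 to 1.26 in Oci-Ly18 and at 17.9 to 19.5 and 17.5 to 20.3 in SUDHL6. CSF1R was called higher in Oci-Ly7, Oci-Ly8 and Oci-Ly18 and ITGAM in Oci-Ly7 and Oci-Ly8. The sum of 6 T cell markers went from 2.85 to 3.37 up to 4.17 to 7.32 CPM in Oci-Ly7, where CD3G was called higher, and from 9.69 to 10.1 down to 7.20 to 8.05 CPM in Oci-Ly8, where CD3G was called lower. In SUDHL6 and Oci-Ly18 no T cell marker was called. The sum of the 9 B cell markers went from 1992 to 2144 CPM in DMSO up to 2485 to 2546 CPM with Combo in SUDHL6. In Oci-Ly8 it went from 1447 to 1885 up to 1903 to 2062 CPM. The sum went from 2335 to 2363 down to 1957 to 2016 CPM in Oci-Ly18. It also fell in Oci-Ly7, from 3137 to 3210 down to 2651 to 2903 CPM. Called single markers went both ways in SUDHL6 and Oci-Ly7, and in a single direction in Oci-Ly8 and Oci-Ly18. In SUDHL6 MS4A1 (2.94), CD79A, EBF1, CD22, BCL6 and MYBL1 were called higher and MME lower (-0.28). In Oci-Ly7 CD79A, EBF1 and MME were called higher and MS4A1, CD22, BCL6 and MYBL1 lower. Oci-Ly8 had PAX5, EBF1, CD22, BCL6, MME and MYBL1 called higher and none lower. Oci-Ly18 had CD79A, CD79B, EBF1, CD22, BCL6 and MYBL1 called lower and none higher. The part of these markers in the fall of the replication genes was not tested.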

How the data were processed

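Poly(A) RNA was sequenced from 48 libraries (4 lines, 4 treatments, 3 replicates, 6 days) with a stranded kit, per the labels' protocols. STAR, DESeq2 and GRCh38 (hg38) are named in the submitters' processing notes; tool versions, the counting program, its strand setting, the annotation release and doses were not given in the sources used here. The deposited values are raw counts per gene, which the authors did not normalize as far as the values show. The labels spell the DOT1L inhibitor in more than 1 way, and EPZ-5676 is used here.

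Counts of 37706 genes were filtered with filterByExpr, which left 17749, scaled by TMM and fitted with edgeR 4.0.16 (limma 3.58.1, R 4.3.3) as 16 groups with 32 residual degrees of freedom, so that all groups share the estimate of spread. Quasi-likelihood tests were adjusted by Benjamini-Hochberg over all 17749 genes, with a threshold of 0.05. CPM used TMM, log2 CPM a prior count of 2, and CPM per kb the exon length in GENCODE 29 (GRCh38). Gene coordinates are those given with the deposited counts. Promoters came from RefSeq. The scripts were tested on simulated data.

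The 46 genes and all lists were chosen with earlier results of these data known. Values in every library are given for the member with the smallest adjusted p per role in the average Combo effect, the members with the highest and lowest change in each comparison of a line with DMSO, members called in opposite directions in 2 lines, and the 3 members with the smallest p in each test between lines; for other lists, up to 3 called genes with the smallest adjusted p could be named. Another B cell marker of the list is not reported here, and the sum leaves it out. PCNA, MCM7 in DOT1Li and CHAF1A were described besides, after their values were seen.

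Alternatives were DESeq2 1.42.0, median-of-ratios scaling, no filter, the replicate block, each line alone, leaving out each library (which reused the gene filter and dispersion trend of the full fit) and leaving out both Oci-Ly8 libraries that stand apart. Same-numbered libraries of different treatments correlated above 0.1 in all 18 pairs in SUDHL6 (mean 0.354) and in Oci-Ly18 (mean 0.204), and in 16 of 18 in Oci-Ly7 (mean 0.212) and Oci-Ly8 (mean 0.276). The numbers were taken to pair the samples of 2 treatments where all 3 pairs passed, which left out DMSO with Combo in Oci-Ly7, and DOT1Li with EZH2i or Combo in Oci-Ly8. This reading for Oci-Ly7 and Oci-Ly8 was taken after the block's counts were known. The pairing comes from these correlations, not from the labels. The lowest r of same-numbered libraries was 0.080 in Oci-Ly7 and 0.072 in Oci-Ly8. Libraries with unlike numbers averaged -0.11 and -0.13 in these lines. The correlations are of deviations from the mean of each group's 3 libraries, which makes these averages negative by construction. As the lowest r lay just under the limit of 0.1, that limit does not show that the samples left out were unpaired. The reported fit has no block. Totals ranged from 5174269 to 18845074 counts.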

Additional observations from a re-analysis of the deposited data

Results flagged for a closer look

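The effect of a treatment differed between the 4 lines for several of the 46 genes, by an F test of the interaction of line and treatment in edgeR's quasi-likelihood fit, adjusted over 17749 genes. For DOT1Li 2 of the 46 genes differed, a share near that of all genes (5.14%). They were UHRF1 (adjusted p = 1.80e-04) and DNMT1 (adjusted p = 0.0188). With replicate number as a block 7 of the 46 differed. The share of all genes that differed was not counted in the fit with the block. UHRF1 was higher in Oci-Ly8 and DNMT1 lower in Oci-Ly18. For EZH2i 16 genes differed (all genes 24%; 28 of the 46 with the block), led by UHRF1 (adjusted p = 7.31e-12), MCM10 (adjusted p = 6.39e-05) and DNMT1 (adjusted p = 1.47e-04). For Combo 40 genes differed (all genes 43.8%), led by UHRF1 (adjusted p = 3.03e-17), the helicase subunit gene MCM2 (adjusted p = 6.71e-11) and the exonuclease gene EXO1 (adjusted p = 1.92e-10).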

How the results depend on the processing

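Counts of called genes among the 46 are given here where they moved by over 1.5 times, with the count of the reported fit in parentheses. The share of all genes called moved between runs too. For Combo vs EZH2i in SUDHL6 the lower share went from 3.69% to 7.16% with the block. For EZH2i vs DMSO in Oci-Ly18 it went from 9.04% to 3.64% with no filter. A moved count alone is therefore not particular to these genes. Called gene effects kept their direction in every alternative run, though not always their call; where a count below differs, the cause was not tested. With the replicate block within each line, the counts were: Oci-Ly7 DOT1Li vs DMSO higher 2 (0), Oci-Ly7 EZH2i vs DMSO lower 6 (3), Oci-Ly8 EZH2i vs DMSO lower 5 (3), Oci-Ly8 EZH2i vs DMSO higher 2 (1), Oci-Ly8 Combo vs DMSO higher 10 (6), SUDHL6 DOT1Li vs DMSO lower 1 (0), SUDHL6 EZH2i vs DMSO higher 1 (0), Oci-Ly18 DOT1Li vs DMSO lower 12 (6), Oci-Ly18 EZH2i vs DMSO higher 1 (0), the average of lines DOT1Li vs DMSO lower 6 (3), the average of lines DOT1Li vs DMSO higher 3 (1), Oci-Ly7 Combo vs DOT1Li higher 3 (0), Oci-Ly8 Combo vs DOT1Li higher 2 (1), Oci-Ly7 Combo vs EZH2i higher 3 (1), Oci-Ly8 Combo vs EZH2i lower 1 (0), Oci-Ly8 Combo vs EZH2i higher 5 (3), SUDHL6 Combo vs EZH2i lower 23 (14), difference between lines in DOT1Li effect (genes called) 7 (2) and difference between lines in EZH2i effect (genes called) 28 (16). Without both Oci-Ly8 libraries that stand apart (DMSO and DOT1Li replicate 3), the counts were: Oci-Ly7 DOT1Li vs DMSO higher 2 (0), Oci-Ly7 EZH2i vs DMSO lower 7 (3), Oci-Ly8 Combo vs DMSO lower 5 (8), SUDHL6 EZH2i vs DMSO higher 1 (0), Oci-Ly18 DOT1Li vs DMSO lower 13 (6), Oci-Ly18 EZH2i vs DMSO higher 1 (0), the average of lines DOT1Li vs DMSO lower 5 (3), the average of lines EZH2i vs DMSO higher 1 (0), Oci-Ly7 Combo vs DOT1Li higher 2 (0), Oci-Ly8 Combo vs DOT1Li higher 2 (1), Oci-Ly7 Combo vs EZH2i higher 3 (1), Oci-Ly8 Combo vs EZH2i lower 1 (0), SUDHL6 Combo vs EZH2i lower 22 (14), the average of lines Combo minus both single effects lower 2 (1), difference between lines in DOT1Li effect (genes called) 6 (2) and difference between lines in EZH2i effect (genes called) 28 (16). With DESeq2, the counts were: Oci-Ly7 EZH2i vs DMSO lower 7 (3), Oci-Ly8 EZH2i vs DMSO higher 2 (1), Oci-Ly8 Combo vs DMSO lower 4 (8), Oci-Ly8 Combo vs DMSO higher 11 (6), the average of lines DOT1Li vs DMSO higher 2 (1), Oci-Ly8 Combo vs EZH2i lower 1 (0), Oci-Ly8 Combo vs EZH2i higher 5 (3), the average of lines Combo minus both single effects lower 3 (1), difference between lines in DOT1Li effect (genes called) 5 (2) and difference between lines in EZH2i effect (genes called) 26 (16). In fits of only the line's own libraries, the counts were: Oci-Ly7 EZH2i vs DMSO lower 8 (3), Oci-Ly8 DOT1Li vs DMSO higher 1 (2), Oci-Ly8 EZH2i vs DMSO lower 0 (3), Oci-Ly8 Combo vs DMSO lower 2 (8), Oci-Ly8 Combo vs DMSO higher 1 (6), SUDHL6 DOT1Li vs DMSO lower 1 (0), Oci-Ly18 DOT1Li vs DMSO lower 16 (6), Oci-Ly18 EZH2i vs DMSO higher 1 (0), Oci-Ly8 Combo vs DOT1Li lower 1 (7), Oci-Ly7 Combo vs EZH2i higher 3 (1), Oci-Ly8 Combo vs EZH2i higher 0 (3) and SUDHL6 Combo vs EZH2i lower 23 (14). With median-of-ratios scaling, the counts were: Oci-Ly8 Combo vs DMSO lower 2 (8), Oci-Ly8 Combo vs DMSO higher 11 (6), the average of lines DOT1Li vs DMSO higher 2 (1) and Oci-Ly7 Combo vs DOT1Li lower 8 (13). With no filter on low counts, the counts were: Oci-Ly8 Combo vs DMSO lower 4 (8), Oci-Ly8 Combo vs DMSO higher 3 (6), SUDHL6 DOT1Li vs DMSO higher 0 (1), Oci-Ly18 DOT1Li vs DMSO lower 3 (6), Oci-Ly18 EZH2i vs DMSO lower 15 (26), the average of lines DOT1Li vs DMSO lower 1 (3), Oci-Ly7 Combo vs DOT1Li lower 3 (13), Oci-Ly8 Combo vs DOT1Li lower 1 (7), Oci-Ly7 Combo vs EZH2i lower 1 (4), Oci-Ly7 Combo vs EZH2i higher 0 (1) and the average of lines Combo minus both single effects lower 0 (1). When each library was left out in turn, the counts ranged as follows: Oci-Ly7 DOT1Li vs DMSO lower 0 to 1, Oci-Ly7 DOT1Li vs DMSO higher 0 to 1, Oci-Ly7 EZH2i vs DMSO higher 0 to 1, Oci-Ly7 Combo vs DMSO higher 3 to 5, Oci-Ly8 DOT1Li vs DMSO lower 0 to 2, Oci-Ly8 DOT1Li vs DMSO higher 1 to 2, Oci-Ly8 EZH2i vs DMSO lower 1 to 11, Oci-Ly8 EZH2i vs DMSO higher 1 to 3, Oci-Ly8 Combo vs DMSO lower 3 to 11, Oci-Ly8 Combo vs DMSO higher 2 to 6, SUDHL6 DOT1Li vs DMSO higher 0 to 1, SUDHL6 EZH2i vs DMSO higher 0 to 1, Oci-Ly18 DOT1Li vs DMSO lower 1 to 5, Oci-Ly18 EZH2i vs DMSO lower 15 to 25, the average of lines DOT1Li vs DMSO lower 1 to 7, the average of lines DOT1Li vs DMSO higher 1 to 4, the average of lines EZH2i vs DMSO higher 0 to 1, Oci-Ly7 Combo vs DOT1Li lower 4 to 9, Oci-Ly7 Combo vs DOT1Li higher 0 to 1, Oci-Ly8 Combo vs DOT1Li lower 1 to 8, Oci-Ly8 Combo vs DOT1Li higher 1 to 2, Oci-Ly7 Combo vs EZH2i lower 1 to 5, Oci-Ly7 Combo vs EZH2i higher 0 to 1, Oci-Ly8 Combo vs EZH2i lower 0 to 1, Oci-Ly8 Combo vs EZH2i higher 1 to 4, SUDHL6 Combo vs EZH2i lower 7 to 12, the average of lines Combo minus both single effects lower 0 to 1 and difference between lines in DOT1Li effect (genes called) 1 to 5. The median effect of Combo against DOT1Li in Oci-Ly7 ranged from -0.11 to -0.06 (reported fit -0.08). Oci-Ly8 held the shallowest library, 5174269 counts, which limits the precision of its DOT1Li values.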
